A study of Mus musculus with 6 samples.

Results

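The Myc, Max and Mxd network is described here through 9 genes in 6 lines of mouse induced pluripotent stem (iPS) cells. The genes were listed by name, with no threshold on their values. They are Myc and Mycn, their dimer partner Max, and the genes of proteins that compete with Myc for Max or oppose it: Mxd1, Mxi1, Mxd3, Mxd4, Mnt and Mga. All 9 of 9 were measured, among 19938 genes in all, each by 1 probeset of a whole-transcript array that is annotated to 1 gene symbol, and no filter on low values was applied. The lines came from OG2 mouse embryonic fibroblasts, which carry a green fluorescent reporter under Oct4 control, and every line received retroviruses for Sox2, Klf4, Oct4 and c-Myc. The control clones 2, 3 and 4 also received a short hairpin RNA (shRNA) against luciferase, and the shECAD clones 4, 8 and 9 one against E-cadherin, the product of Cdh1. The cells were put on feeder cells on day 6 after infection and colonies were picked on day 14, and each line is 1 clone with 1 array (n = 3 clones a group). The labels tell of separate lines but not of separate infections. The limma p-values rest on how far clones of a group spread, with each gene's variance moderated by that of all genes. Because c-Myc was itself delivered by virus, the Myc values may include viral transcripts, which was not tested.

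Myc proteins bind DNA at the E-box as dimers with Max, through a basic helix-loop-helix leucine zipper, and raise genes of ribosome synthesis, nucleotide synthesis and growth. Proteins of the Mxd group and Mnt also pair with Max, bind the same motif and bring in Sin3 corepressors with histone deacetylases. Mga, which has a T-box as well, pairs with Max in the polycomb complex PRC1.6, which keeps germ cell genes silent in embryonic stem cells. In mouse embryonic stem cells Myc and Mycn are both expressed and can stand in for each other in self-renewal.

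The E-box searched for was CACGTG, which reads the same on both strands. It was present in the promoter window, from 250 bases before to 50 bases after the start of the gene, of 3 of the 8 members that have one in the RefSeq table (build GRCm38.p6), namely Max, Mxd4 and Mnt. The motif was in the window of 8.09% of all 27025 genes in that table. A match is a description of the sequence and shows no binding. The 3 sites of the members are shown with 12 bases on each side, 5′ to 3′ on the strand of the gene, with the E-box in capitals. The first base of the motif lies 3 bases before the start of Max, 219 bases before that of Mxd4 and 123 bases before that of Mnt.
Max (chr12:76962234-76962263, minus strand): ggtgagcccggtCACGTGttagggggccga
Mxd4 (chr5:34187912-34187941, minus strand): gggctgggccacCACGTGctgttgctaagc
Mnt (chr11:74830789-74830818, plus strand): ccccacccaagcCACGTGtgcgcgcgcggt
The 250 bases before the start are shown for Mxd4 and Mga, the members with the largest difference between the groups in each direction. The window of Mxd4 holds the motif and that of Mga does not.
Mxd4 (chr5:34187711-34187960, minus strand): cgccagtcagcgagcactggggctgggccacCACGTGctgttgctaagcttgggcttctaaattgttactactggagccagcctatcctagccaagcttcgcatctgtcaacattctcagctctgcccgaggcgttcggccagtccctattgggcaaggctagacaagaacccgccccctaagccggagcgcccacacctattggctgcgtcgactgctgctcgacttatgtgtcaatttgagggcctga
Mga (chr2:119896978-119897227, plus strand): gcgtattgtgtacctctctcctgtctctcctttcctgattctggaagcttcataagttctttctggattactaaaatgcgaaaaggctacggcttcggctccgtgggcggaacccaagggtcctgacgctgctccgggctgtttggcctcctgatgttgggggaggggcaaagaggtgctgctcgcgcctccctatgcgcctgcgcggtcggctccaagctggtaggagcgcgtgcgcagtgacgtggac

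The libraries matched their labels in the targeted gene. Control clones read 9.07 to 9.60 for Cdh1 and shECAD clones 6.75 to 7.81, a log2 fold change of -2.13 ± 0.27 (SE, limma adjusted p = 0.00683). All 18 pluripotent markers, Pou5f1, Sox2 and Nanog among them, lay above the median gene on all 6 arrays. Fibroblast and feeder markers differed between the groups. Of 24 measured markers 15 rose and 0 fell (limma adjusted p below 0.05), beside 1.9% of all genes higher and 1.23% lower. Their mean log2 level was 5.76 to 6.78 in the control clones and 7.41 to 7.70 in the shECAD clones. None of the 24 lay below the 25th percentile on every control array at once. In control clone 4, Postn (3.72), Ccdc80 (3.59) and Lum (3.84) lay below that array's 25th percentile (3.85). Of 19 markers of early differentiated cells, 5 rose and 0 fell, beside the same shares of all genes. The feeder cells were removed before extraction, per the labels, and the part of other cells in the results that follow was not tested. In such bulk samples fewer cells of a type and less RNA per cell cannot be told apart. Arrays' medians ran from 5.11 to 5.30. Over all genes the median log2 fold change was 0.025, and over the 9969 genes at or above the median level it was -0.092.

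None of the 9 network genes passed the test. With limma, 0 of 9 had an adjusted p below 0.05, against 3.12% of all genes (1.9% higher and 1.23% lower). An unadjusted p below 0.05 was found in 2 of 9, Mxd4 and Mga, against 18% of all genes. Among the brighter genes, at or above the median level, to which all members but Mxd3 belong, that share was 27%. No alternative fit called a member. The shECAD clones did not overlap the control clones in 3 members, higher in Mxd1 and Mxd4 and lower in Mga, and the groups did not overlap in 23.6% of all genes. The median log2 fold change of the 9 was 0.11. Every log2 fold change given is the shECAD mean minus the control mean.

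**Figure D1:**
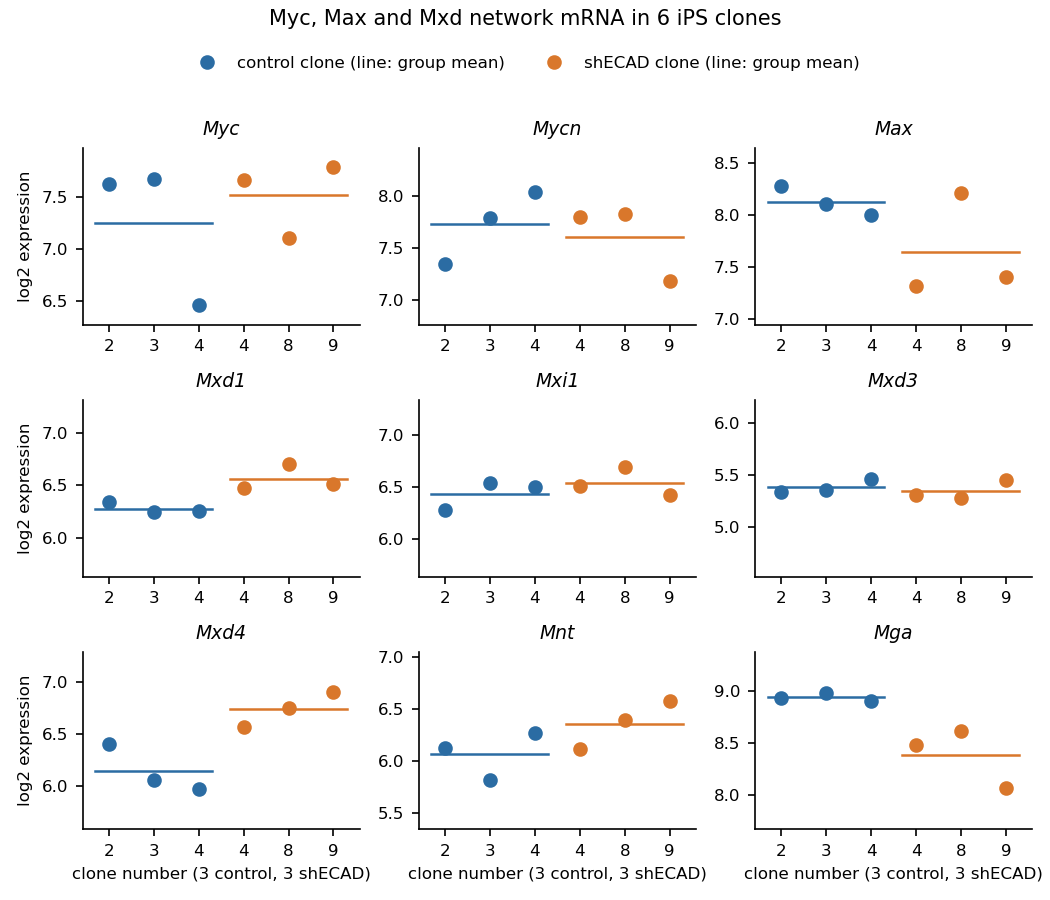
Log2 expression of the 9 network genes in each clone (3 control clones in blue, 3 shECAD clones in orange; lines are group means; every panel spans the same range of log2 units). The groups are apart in Mxd1, Mxd4 and Mga and overlap in the other 6 genes.

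Mycn, the family member known for its role in embryonic and neural progenitor cells, read 7.35 in control clone 2, 7.79 in clone 3 and 8.04 in clone 4. Its values were 7.79 in shECAD clone 4, 7.82 in clone 8 and 7.19 in clone 9, and values of the other genes are given in the same order of clones. The highest value was in a control clone and the lowest in an shECAD clone, and the other 4 lay between them with the groups mixed. The control mean was 7.73 ± 0.35 and the shECAD mean 7.60 ± 0.36 (SD, n = 3 in each group). Mycn thus had a log2 fold change of -0.13 ± 0.23 (SE), with a 95% interval from -0.63 to 0.38 (limma adjusted p = 0.819, exact permutation p = 0.7). On the linear scale the interval of Mycn runs from 64.7% to 130% of the control level. The sign turned without control clone 4 (0.03) or without shECAD clone 9 (0.08).

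Myc read 7.62, 7.67 and 6.46 in the control clones and 7.66, 7.10 and 7.78 in the shECAD clones. Control clone 4 was the lowest of all and shECAD clone 8 the next, while the remaining 4 clones lay within the narrow range from 7.62 to 7.78. The range among control clones, 1.21, was the widest of any member in either group. Myc had a log2 fold change of 0.27 ± 0.31 (SE), with a 95% interval from -0.42 to 0.95 (limma adjusted p = 0.705, exact permutation p = 0.6). Without control clone 4 it was -0.13. The same clone had the highest Mycn value and the lowest mean of fibroblast markers (5.76).

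Max, the dimer partner of both Myc proteins and also of their antagonists, read 8.28, 8.11 and 8.01 in the control clones and 7.32, 8.22 and 7.40 in the shECAD clones. The shECAD clones 4 and 9 lay below every control clone, whereas shECAD clone 8 lay inside the control range, so that the groups overlapped. Between the groups Max differed by a log2 fold change of -0.48 ± 0.23 (SE), with a 95% interval from -0.99 to 0.03 (limma adjusted p = 0.308, exact permutation p = 0.3). The change of Max was -0.77 with shECAD clone 8 left out and -0.32 with shECAD clone 4 left out. The spread of Max was 0.14 (SD) among control clones and 0.50 among shECAD clones.

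Among the antagonists that recruit Sin3, Mxd4 had the largest difference. Mxd4, a gene of the Mxd group linked to differentiating cells, read 6.40, 6.05 and 5.97 in the control clones and 6.57, 6.75 and 6.90 in the shECAD clones. Every shECAD clone was higher than every control clone, with a gap of 0.17 between the nearest clones. Its log2 fold change was 0.60 ± 0.17 (SE), or 151% of the control level with a 95% interval from 116% to 197%. The unadjusted p was 0.00558 and the limma adjusted p 0.0931, which misses the threshold, and the exact permutation p was 0.1, the smallest that 3 clones against 3 can give. With 1 clone left out the log2 fold change of Mxd4 stayed between 0.51 and 0.73. With the mean of the fibroblast markers as a covariate it was 0.12 ± 0.38 (SE), in a fit that cannot tell that mean from the group.

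Mxd1, a gene that rises in many cell types as they leave the cell cycle, read 6.34, 6.24 and 6.25 in the control clones and 6.48, 6.70 and 6.51 in the shECAD clones. The groups were apart by 0.14, about the size of the SE. The shECAD minus control difference in Mxd1 was 0.29 ± 0.15 (SE) on the log2 scale, with a 95% interval from -0.04 to 0.61 (limma adjusted p = 0.343, exact permutation p = 0.1). Mnt, a widely expressed antagonist, read 6.12, 5.82 and 6.26 in the control clones and 6.11, 6.39 and 6.57 in the shECAD clones. The shECAD clones 8 and 9 lay above the control range and shECAD clone 4 inside it. For Mnt the log2 fold change was 0.29 ± 0.18 (SE), with an interval from -0.11 to 0.69 (limma adjusted p = 0.442). It was 0.17 without control clone 3 and 0.15 with array quality weights.

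Mxi1 and Mxd3 differed least. Mxi1, an antagonist gene of the Mxd group, read 6.28, 6.54 and 6.50 in the control clones and 6.51, 6.70 and 6.43 in the shECAD clones, with a log2 fold change of 0.11 ± 0.16 (SE, limma adjusted p = 0.774). Mxd3, the member of the group that is found in dividing cells, read 5.34, 5.35 and 5.46 and then 5.30, 5.28 and 5.45, with a log2 fold change of -0.04 ± 0.15 (SE, limma adjusted p = 0.914). The groups overlapped in both genes. The 95% intervals, from -0.24 to 0.45 for Mxi1 and from -0.36 to 0.28 for Mxd3, leave room for moderate differences in either direction. The Mxd3 values lay close to the arrays' medians of 5.11 to 5.30.

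Mga, the PRC1.6 subunit, was the member with the tightest control values. It read 8.93, 8.98 and 8.90 in the control clones and 8.48, 8.62 and 8.07 in the shECAD clones. Every shECAD clone was lower than every control clone, by at least 0.29, and shECAD clone 9 was the lowest. Mga had a log2 fold change of -0.55 ± 0.17 (SE), or 68.3% of the control level with a 95% interval from 52.3% to 89.2%. The unadjusted p was 0.00949, the limma adjusted p was 0.121, and the exact permutation p was 0.1. This change was -0.43 after quantile normalization, -0.64 when arrays were set to a common median, and -0.39 without shECAD clone 9.

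**Figure D2:**
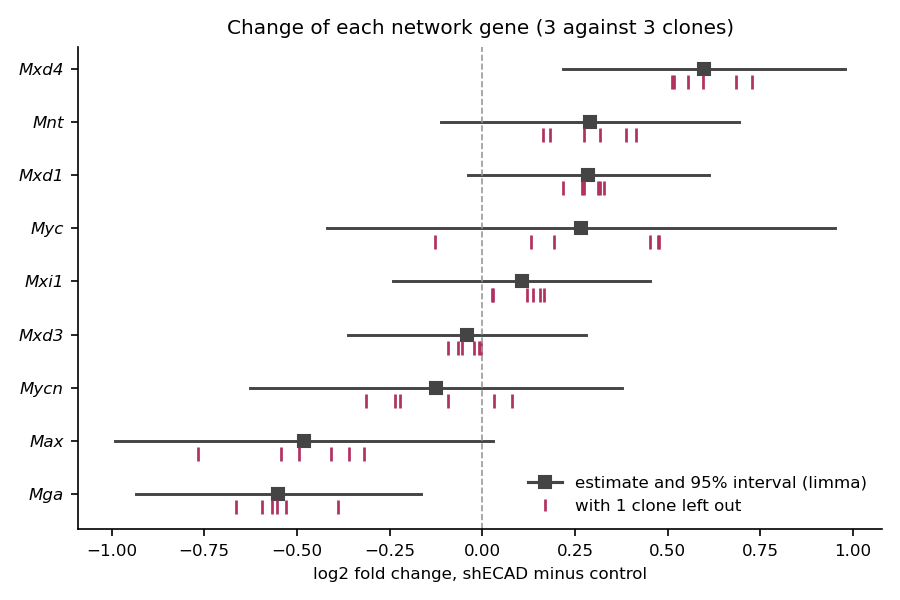
Log2 fold change of each network gene (squares, shECAD minus control) with its 95% interval from limma, and the estimates with 1 clone left out (ticks). The intervals of Mxd4 (0.22 to 0.98) and Mga (-0.93 to -0.17) exclude 0 before adjustment over all genes, and the ticks of Myc and Mycn fall on both sides of 0.

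The fibroblast marker mean lies apart between the groups, and a fit with it as a covariate gave a median SE of 0.41 instead of 0.18 and 0 called genes (760 genes had an unadjusted p below 0.05). Because the marker mean and the group go together, that fit cannot tell their parts apart. In it the log2 fold changes (± SE) were -0.82 ± 0.61 for Myc, 0.52 ± 0.49 for Mycn and -1.12 ± 0.50 for Max. For Mxd3 the value was 0.13 ± 0.36 and for Mga -0.70 ± 0.42. The signs of Myc, Mycn and Mxd3 were turned in that fit.

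The genes whose levels followed Mycn most closely over the 6 clones, among 9968 genes at or above the median level, were Ufl1 (Pearson r = 0.996), Yes1 (0.989) and Oxsr1 (0.986). Ufl1 encodes an enzyme of the UFM1 modifier pathway, Yes1 a Src family kinase and Oxsr1 a stress-responsive kinase. For Myc they were Flywch2 (0.973), Nr2f6 (0.969) and Nnt (0.967), of which Nr2f6 encodes a nuclear receptor and Nnt a mitochondrial transhydrogenase. With 6 clones such values are common: 145 genes had an r above 0.9 with Mycn and 19 with Myc. The clones share their group and array in these correlations, which are descriptions.

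Other genes of the extended network did not pass the test either. Of the 6 measured in that list, which holds Mycl, the Mlx branch and the E-box binders Usf1 and Usf2, 0 were called by limma and 0 had an unadjusted p below 0.05. The largest differences were 0.21 for Usf1, -0.12 for Mlx and 0.11 for Mlxipl. The groups overlapped in all 6.

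Among cofactors of Myc and genes of its turnover none passed the test. Of 23 measured, 18 had a negative log2 fold change and 5 a positive one, and the median was -0.25, beside -0.092 for all brighter genes. Limma called 0, with 6 at an unadjusted p below 0.05, a share close to the 27% of all brighter genes at that level. The largest differences were in Bin1, which encodes a Myc-interacting adaptor (0.69, limma adjusted p = 0.11), the ATPase gene Ruvbl2 (-0.49, adjusted p = 0.155) and the chromatin remodelling gene Smarcb1 (-0.43, adjusted p = 0.22). Without control clone 2 limma called 1 cofactor higher, Bin1. The mean level of the list was 8.04 to 8.08 in the control clones and 7.86 to 7.96 in the shECAD clones.

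Corepressor partners of the Mxd proteins and Mnt gave 1 call among 14 measured genes, beside 3.12% of all genes. Arid4a, the gene of a Sin3 complex subunit, fell by 0.72 on the log2 scale (SE 0.16, limma adjusted p = 0.0444), from 7.14 ± 0.13 (SD) to 6.42 ± 0.20. In none of the 6 fits that leave out 1 clone was Arid4a called (adjusted p up to 0.142, without shECAD clone 4), nor was it after quantile normalization. The scaffold genes Sin3a and Sin3b, named here after their values were seen, differed by -0.24 and 0.07. Over all 14 genes the median log2 fold change was -0.20. Within the shECAD group the mean level of these genes was highest in clone 8 (8.05, against 7.86 and 7.85 in clones 4 and 9). That clone was also the highest of the shECAD clones in the mean of the Myc cofactors (7.96), of the Myc-activated targets (9.34), of the fibroblast markers (7.70) and of the pluripotent markers (9.21).

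Among partners of Mga and Max in PRC1.6 none passed the test either. Of 16 measured genes, 13 had a negative log2 fold change and 3 a positive one. The median was -0.24, -0.16 after quantile normalization and -0.33 after median centring, beside -0.092 for all brighter genes as deposited. Limma called 0 of the 16, with 4 at an unadjusted p below 0.05, which is again close to the 27% of all brighter genes. The largest differences were in Pcgf6, the subunit that defines the complex (-0.61, limma adjusted p = 0.195), in Rnf2, the gene of its ubiquitin ligase (-0.57, adjusted p = 0.0914), and in Cbx1 (-0.44, adjusted p = 0.136). Rnf2 read 8.29, 8.37 and 8.45 in the control clones and 7.90, 7.96 and 7.55 in the shECAD clones, so that the groups were apart. In Pcgf6, with 8.38, 8.93 and 8.60 against 8.03, 8.46 and 7.60, they overlapped through shECAD clone 8.

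Some germ cell genes known as targets of PRC1.6 fell in the shECAD clones. Of 22 measured, 5 fell and 0 rose, beside 1.23% of all genes called lower and 1.9% called higher. A negative log2 fold change was found in 20, and the median was -0.75, beside 0.025 for all genes. The list was drawn up when falls of Dazl and Tex11 in these clones were already known, so its direction is not independent evidence. Both genes are among the 5 that fell. Stra8, which starts meiosis, read 5.96, 6.33 and 5.70 in the control clones and 4.35, 4.39 and 4.18 in the shECAD clones, a log2 fold change of -1.69 ± 0.18 (SE, limma adjusted p = 0.00414). Dazl, an RNA-binding protein gene of germ cells, had -1.89 ± 0.30 (adjusted p = 0.0123), and the meiosis gene Tex11 had -2.10 ± 0.42 (adjusted p = 0.0297). The remaining calls, named after their values were seen, were Sycp1, which encodes a protein of paired meiotic chromosomes and fell by 1.64, and Ddx4, an RNA helicase gene of germ cells that fell by 1.12 (adjusted p = 0.0305 and 0.0318). Sycp1 was not called when any 1 control clone was left out (up to 0.0923), nor Ddx4 without any clone other than shECAD clone 8 (up to 0.0987). Tex11 was not called when control clone 3 (adjusted p = 0.074), control clone 4 or shECAD clone 4 was left out. Nor was Tex11 called with an intensity trend and robust prior. The 5 calls became 2 without control clone 3 or 4, and 3 without control clone 2 or shECAD clone 4. In shECAD clone 9, Tex11 (3.365), Sycp1 (3.288) and Dazl (4.005) lay below the 25th percentile of that array (4.014). The size of their falls thus rests partly on low readings. The mean level of the list was lowest in shECAD clone 9 (4.51, against 5.31 and 5.46 in clones 4 and 8). The same clone had the lowest Mga value, the lowest mean of pluripotent markers (8.69, against 9.16 and 9.21) and the highest mean of differentiated markers (6.39, against 5.75 in both others).

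The E-box CACGTG was in the promoter window of 11 of the 21 genes of this list that have one, or 52.4%, against 8.09% of all genes. The share was 40% for the extended network (2 of 5 genes) and 31.2% for genes reported as lowered by Myc or Mycn (5 of 16). For Myc-activated targets it was 28.8% (15 of 52). In the remaining lists around the network the share ran from 0% to 15.4%. This list was chosen from genes reported as repressed by Mga, Max or PRC1.6, so its share is not independent of that choice. Among the genes that fell, Sycp1 and Ddx4 hold it and Stra8 and Dazl do not, and Tex11 was not searched here. The sites of Sycp1 and Ddx4, whose first bases lie 94 and 29 bases before the start, are shown for comparison with those of the network members (same build, flanks and capitals).
Sycp1 (chr3:102936177-102936206, minus strand): tagagaacccggCACGTGggaagggaaatc
Ddx4 (chr13:112652322-112652351, minus strand): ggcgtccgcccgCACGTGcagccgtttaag

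Few of the textbook targets that Myc raises passed the test, 3 of 61 measured, beside 3.12% of all genes. Of 61 measured genes of ribosome synthesis, nucleotide synthesis and growth, 2 rose, 1 fell, and 52 had a negative log2 fold change, with a median of -0.23 beside -0.092 for the brighter genes on these arrays. After quantile normalization the median of the list was -0.12. Ccnd2, the gene of cyclin D2, rose from 7.74 ± 0.63 (SD) to 9.39 ± 0.17, a log2 fold change of 1.65 ± 0.27 (SE, limma adjusted p = 0.0147). Ldha, which encodes lactate dehydrogenase A, rose by 0.78 (adjusted p = 0.0339). Prmt5, which encodes an arginine methyltransferase, fell by 0.75 (adjusted p = 0.0302). Ccnd2 was not called when shECAD clone 8 (adjusted p = 0.0616) or shECAD clone 4 was left out, Ldha without any clone other than shECAD clone 4 (up to 0.142), and Prmt5 without any 1 clone (up to 0.0933). The classical Myc target Odc1, the rate-limiting enzyme gene of polyamine synthesis, had the largest negative value (-0.81, limma adjusted p = 0.0613) and did not pass; it was named after its value was seen. It passed when shECAD clone 8 was left out and with array quality weights.

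Genes reported as lowered by Myc or Mycn rose in larger number, together with the fibroblast markers, to which 5 of the 26 measured belong. Of the 21 that are not on the fibroblast marker list used here, 6 rose and 1 fell, with a median of 0.55. Among all genes 1.9% were called higher and 1.23% lower. Whether fibroblasts also express those 21 was not tested. Of all 26, 10 rose and 1 fell, beside the same shares of all genes, with a median of 0.59. The largest rises were in Thbs1, which encodes a thrombospondin of the matrix (3.08 ± 0.27 SE, limma adjusted p = 0.00282), and in the collagen genes Col1a1 (1.97, adjusted p = 0.017) and Col1a2 (1.84, adjusted p = 0.0308). Both collagen genes are also on the fibroblast marker list. Ndrg1, named after its values were seen as a gene that Mycn lowers, rose by 1.06, from 6.69 ± 0.38 (SD) to 7.75 ± 0.28 (adjusted p = 0.0319, and up to 0.116 without control clone 4). Nor was it called when control clone 3 or either of the shECAD clones 8 and 9 was left out. The cell cycle inhibitor genes of the list, also named afterwards, did not pass, with log2 fold changes of 0.02 for Cdkn1b (-0.10 when its probesets were averaged), 0.44 for Cdkn1c and 0.55 for Cdkn2b. Itga6, an integrin gene, was the one that fell (-0.84, adjusted p = 0.0385), and it was called in only 1 of the 6 fits that leave out a clone, that without control clone 2 (up to 0.143 without control clone 4). The 10 rises became 2 when shECAD clone 8 was left out, 4 for control clone 4, 5 for control clone 3 and 6 for shECAD clone 4 or 9. Col1a1 was not called with shECAD clone 8 left out (adjusted p = 0.0661), nor Col1a2 without any clone other than control clone 2 (up to 0.0919). Col1a2 was also not called with an intensity trend and robust prior.

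**Figure D3:**
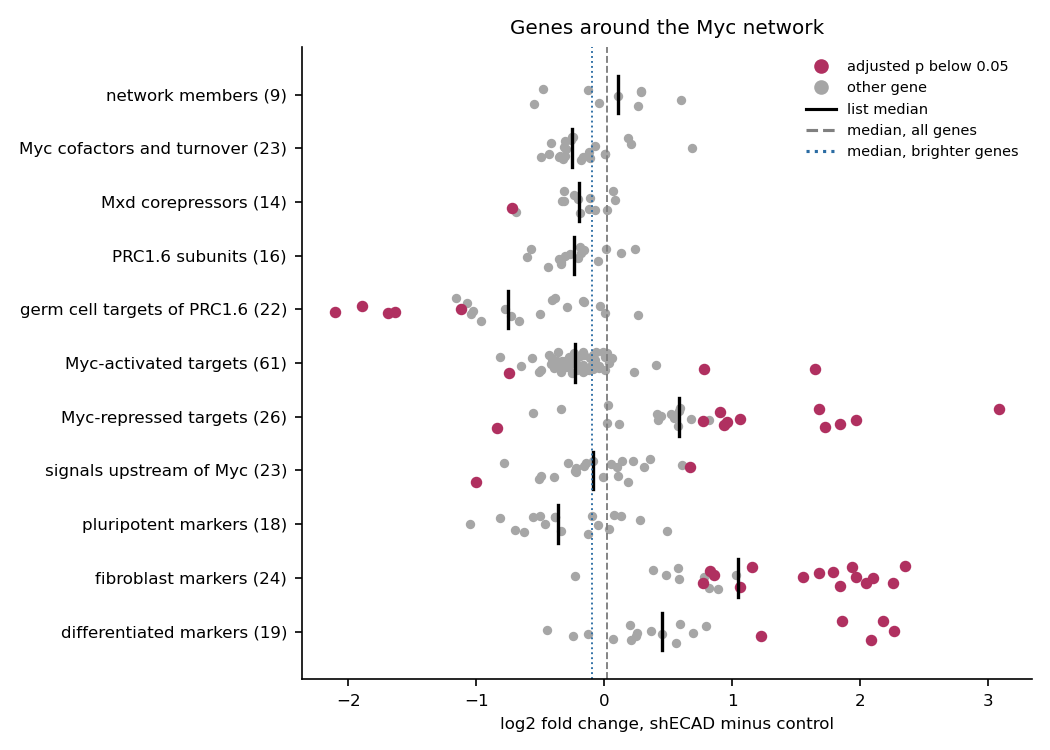
Log2 fold change (shECAD minus control) of every measured gene in the lists around the network, with the number measured in brackets. Red points passed the limma test, black bars are list medians, the dashed line is the median of all genes (0.025) and the dotted line that of the brighter genes (-0.092); no network member is red, and the called germ cell targets all lie on the negative side.

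Signals that set Myc and Mycn levels in stem cells gave 2 calls among 23 measured genes, beside 3.12% of all genes. Lifr, the receptor gene for leukaemia inhibitory factor, read 7.42 to 7.55 in the control clones and 6.18 to 6.67 in the shECAD clones (-1.002 ± 0.17 SE, limma adjusted p = 0.0176), and its call was lost without control clone 4 (adjusted p = 0.0734). Smad3, which encodes a mediator of TGF-beta signalling, rose by 0.67 (adjusted p = 0.0467) and was called in no fit that left out 1 clone, with adjusted p-values up to 0.187 without control clone 4, nor after median centring. The median of the list was -0.09 and turned to 0.031 after quantile normalization. Gsk3b and Stat3, named after their values were seen as the kinase that marks Myc for turnover and the factor that LIF activates, did not pass, at 0.18 for Gsk3b and -0.29 for Stat3.

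**Figure D4:**
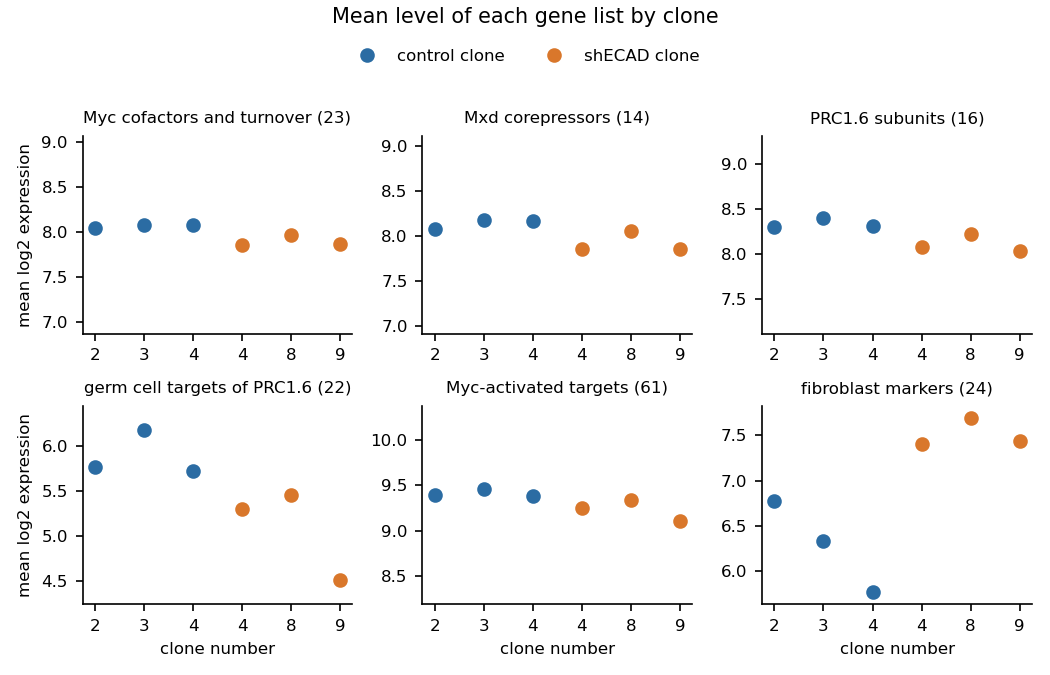
Mean log2 expression of 6 gene lists in each clone (control in blue, shECAD in orange; the number of genes is in brackets, and every panel spans the same range of log2 units). The fibroblast mean lies between 5.76 and 6.78 in control clones and between 7.41 and 7.70 in shECAD clones. The germ cell mean is lowest in shECAD clone 9 (4.51). In the other 4 lists the clones lie closer together, with every control mean above every shECAD mean. The lowest control and highest shECAD means are 8.04 and 7.96 (cofactors), 8.08 and 8.05 (corepressors), 8.30 and 8.23 (PRC1.6) and 9.38 and 9.34 (Myc-activated).

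Markers of cell state varied beside these genes. Of the 18 pluripotent markers 0 passed the test with limma, beside 3.12% of all genes, and the median was -0.36. With 5 at an unadjusted p below 0.05, their share was close to the 27% of all brighter genes at that level. The largest differences were in Nr0b1 (-1.05), Esrrb (-0.81) and Dppa4 (-0.70), with adjusted p-values of 0.139, 0.181 and 0.09. Among fibroblast markers Lox, Postn and Fbln2 rose most, by 2.35, 2.26 and 2.10, and among markers of differentiated cells Fgf5, Krt18 and Krt19 rose most, by 2.27, 2.18 and 2.09. The 15 fibroblast calls became 5 with shECAD clone 8 left out, 8 with shECAD clone 4 or either of control clones 3 and 4 left out, and 10 with shECAD clone 9 left out. The 5 calls among differentiated markers became 3 without control clone 4.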

How the data were processed

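Total RNA of 6 iPS clones (3 control, 3 shECAD) was labelled with biotin from 100 ng and hybridised to Affymetrix whole-transcript arrays, per the labels' protocols. The deposited table gives log2 expression per probeset. Per the submitters' processing notes, RMA and Partek were used. Their versions and settings and the genome build were not given in the sources used here. Values were used as deposited. Of 28853 probesets, 21789 have 1 gene symbol in the platform annotation, 1621 have several and 5443 have none here. Those with 1 symbol were named through RefSeq by Entrez identifier (21698 matched), and the brightest probeset stood for each of 19938 genes.

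The groups were compared with limma 3.58.1 in R 4.3.3 (lmFit and eBayes, no covariate), with Benjamini-Hochberg adjustment over all genes and a call at an adjusted p below 0.05. Exact permutation tests were two-sided over 20 labellings. The fit was tested on simulated data. The members, the 11 other gene lists and the tests were chosen with earlier results of these data known. Named genes are the members, Cdh1, the 3 largest called changes of each list (or, with no call, the 3 largest changes), and the 3 genes most correlated with Mycn and with Myc. Others were added after their values were seen. The number of arrays limits the precision. Promoter sequences are from RefSeq (GRCm38.p6). Figures were drawn with matplotlib 3.10.9. The alternatives were median centring, quantile normalization, brighter genes alone, averaged probesets, array weights, a robust prior with intensity trend, no variance moderation, a fibroblast covariate (the list mean) and leaving out each clone.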

Additional observations from a re-analysis of the deposited data

How the results depend on the processing

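The count of called genes was 623. It was 1067 with array quality weights, 3 without variance moderation and between 146 and 543 with 1 clone left out. With the mean of the fibroblast list as covariate it was 0 (760 at an unadjusted p below 0.05). Every gene named here as called, Cdh1 included, lost its call without variance moderation. Median centring gave 680 calls, 303 higher and 377 lower, against 378 higher and 245 lower as deposited. Among brighter genes alone 379 were higher and 402 lower. No member was called under any of the 14 alternatives (13 for Mxd3, which is not among the brighter genes), and Max, Mxi1, Mxd1, Mxd4, Mnt and Mga kept their direction in the 10 that can change a member's fold change (the other 4 leave it as it was). With 1 clone left out the log2 fold change ran from -0.13 to 0.48 for Myc and from -0.31 to 0.0814 for Mycn. With the fibroblast covariate it was -0.82 for Myc, 0.52 for Mycn, 0.13 for Mxd3 and -0.029 for Mlxipl, each turned in sign. Bin1 (-0.034), Col1a2 (-0.31), Cdkn1c (-0.017) and Cdkn2b (-0.34) turned in that fit as well. The covariate goes together with the group, so that fit cannot tell their parts apart. Sin3b turned to -0.016 and Cdkn1b to -0.063 with median centring, and Cdkn1b to -0.10 with averaged probesets, to -0.084 with array weights and from -0.13 to 0.22 with 1 clone left out. The cause was not tested. The lowest adjusted p over the alternatives was 0.0561 for Mxd4 and 0.0626 for Mga. Each member has 1 probeset, so the alternative of other probesets gave no value. No paired analysis was possible because the groups share 1 clone number, which the labels do not tie to a common origin.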
